A study of Homo sapiens with 6 samples.

Results

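Collagens are secreted or membrane-bound proteins whose alpha chains wind around each other into helices, and each chain is the product of its own gene. The gene symbols COL, a number, A and a second number name the collagen type and the chain. The set described here holds every symbol of that form in the count data, 44 of 24462 symbols, with antisense RNAs and pseudogenes left out. The entries of a repeated symbol were added together, which applied to COL11A2 with 7 entries.

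The 6 libraries came from 2 groups of human colon epithelial cells, immortalized and described in the labels as colonic epithelial progenitor cells. The 3 libraries of 1CT carry the genotype WT, and the 3 libraries of 1CT-A carry the genotype APC KD and come from the line in which wild type APC, a negative regulator of Wnt/β-catenin signaling, was depleted. Neither group was treated, and both were grown in the same medium with 2% FBS, EGF, hydrocortisone, insulin, transferrin and sodium selenite, so serum and growth factors were common to both. How 1CT-A was derived and whether it is 1 clone are not given in the sources used here. Nothing says that the replicates were separate cultures, so the p-values measure the spread between these libraries, which may be technical.

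Fibrillar collagens such as types I, III and V form the banded fibers of connective tissue. Type IV makes the sheet-like network of basement membranes, and type VI makes beaded filaments next to it. In the intestine, fibroblasts below the epithelium are known as the main source of fibrillar collagen, while epithelial cells and their neighbours both supply basement membrane. Chains are hydroxylated and folded in the endoplasmic reticulum, trimmed by proteases outside the cell and then crosslinked by lysyl oxidases.

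The 1CT libraries held between 7788679 and 8452258 counts, and the deeper 1CT-A libraries between 11158108 and 12602988. CPM values are counts scaled to these totals, each total being set to 1000000. The floor of detection was taken as 3 counts, worth between 0.355 and 0.385 CPM for 1CT and between 0.238 and 0.269 CPM for 1CT-A. The libraries hold reads from the 3′ ends of transcripts, so values were not divided by gene length. The targeted gene, APC, stood at 49.3, 43.8 and 46.6 CPM in the 1CT libraries and at 31.5, 30.02 and 34.4 CPM in the 1CT-A libraries (log2 fold change -0.58, SE 0.092, adjusted p = 1.76e-04), which goes with the labels.

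The labelled cell type was checked against its markers. Of 14 colon epithelium markers, 8 had at most 3 counts in every library and 5 of these, EPCAM, VIL1, CDX1, MUC2 and CLDN3, had none, while the summed level of the list lay between 41.2 and 45.2 CPM for 1CT and between 23.6 and 30.8 CPM for 1CT-A. All 13 fibroblast and mesenchyme markers were counted well enough to be tested, with 4 higher and 5 lower in 1CT-A (of all genes tested, 25% were higher and 26% lower) and a summed level between 2605 and 2992 CPM for 1CT and between 2469 and 2598 CPM for 1CT-A. In every library the fibroblast and mesenchyme list thus summed far above the colon epithelium list, so these markers bore out the epithelial label poorly. The 3 epithelial markers that could be tested, KRT18, KRT19 and CLDN7, were called lower in 1CT-A. KRT19 passed the filter on low counts only through 1CT (20, 27 and 34 counts against 0, 0 and 0). CLDN7 overlapped between the lines (log2 fold change -0.40, adjusted p = 0.0225 in edgeR). Without the 2 libraries numbered 2, CLDN7 (adjusted p = 0.0838) and VIM lost their calls, and PDGFRA and CDH2 were called higher. Over all lists 13 markers were then called, 7 lower and 6 higher. Of 5 endothelium markers 1 could be tested and was lower, with at most 6.52 CPM summed over the list in any library, and of 5 leukocyte markers none could be tested, with at most 2.31 CPM summed. In bulk RNA, fewer cells of a type and less RNA per cell cannot be told apart.

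The libraries numbered 2 stood apart for a small group of genes in both lines. Of the 12403 genes whose mean reached 1 CPM, 16 were over 2-fold above the other libraries of the same line in both 1CT replicate 2 and 1CT-A replicate 2, against 0 or 1 for each of the 8 other combinations of a 1CT and a 1CT-A library. COL11A1 ranked first among the 16. Results are therefore also given without both of these libraries, an alternative chosen after seeing the data.

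Of the 44 collagen genes, 21 were counted well enough to be tested with edgeR's quasi-likelihood test, and 15 of these (71.4%) differed at an adjusted p under 0.05, against 51% of the 12514 genes tested. Lower levels in 1CT-A were called for 12 (57.1%, against 26% of all genes tested) and higher levels for 3 (14.3%, against 25%). The median log2 fold change of the tested collagen genes was -0.65, against -0.0067 over all genes tested. The libraries of the lines did not overlap for 15 of the 21 (71.4%, against 59.7% of all genes tested). The study's methods set thresholds of 2-fold and of 0.01 for p. With these thresholds on edgeR's fold changes and unadjusted p, 9 of 21 (42.9%) were called, against 13.4% of all genes tested. Of the 21, COL5A3 and COL11A1 passed the filter on low counts through their 1CT libraries. Without these 2 the numbers were 11 lower and 3 higher of 19. Without both libraries numbered 2, the numbers called were again 15, 12 lower and 3 higher, with the call of COL6A3 lost and that of COL11A1 gained.

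**Figure D1:**
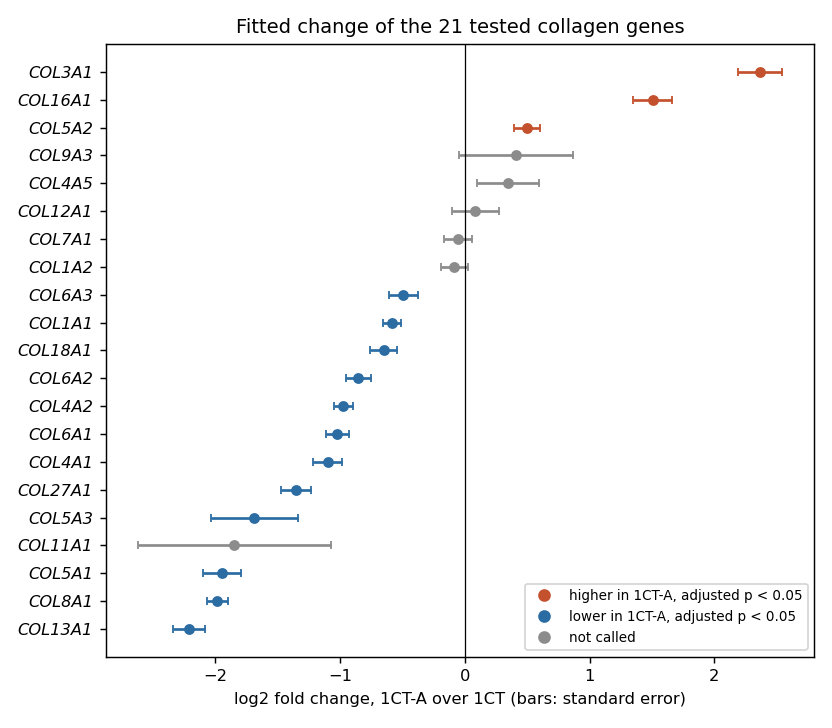
Fitted log2 fold change of each of the 21 tested collagen genes, 1CT-A over 1CT on the horizontal axis, with bars for the standard error (n = 3 libraries per line) and colors for the call of edgeR's test. COL13A1 lies lowest at -2.21 and COL3A1 highest at 2.37, and 12 blue points stand against 3 orange ones.

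The lower group took in both major type IV chains, all 3 tested type VI chains, COL8A1, COL13A1 and COL18A1, besides 4 of the 8 tested fibrillar genes. COL3A1, COL16A1 and COL5A2 made up the higher group. The counts summed over all 44 genes were 6322, 7197 and 5473 CPM in the 1CT libraries and 4767, 4882 and 4764 CPM in the 1CT-A libraries. Every 1CT library thus lay above every 1CT-A library, and the means of 6331 ± 862 and 4804 ± 67.4 CPM (SD, n = 3) had a ratio of 0.759, or 0.808 without both libraries numbered 2. These sums made up 0.633% of all counts in 1CT and 0.480% in 1CT-A. COL6A3, COL1A1 and COL1A2 together took 78.1% to 82.4% of the collagen counts of each library, and leaving out COL6A3 changed the ratio to 0.776. The share of COL3A1 in the collagen counts was 0.739% ± 0.178 in 1CT and 5.27% ± 0.246 in 1CT-A, and that of COL8A1 was 4.64% ± 0.886 and 1.56% ± 0.108 (SD, n = 3).

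**Figure D2:**
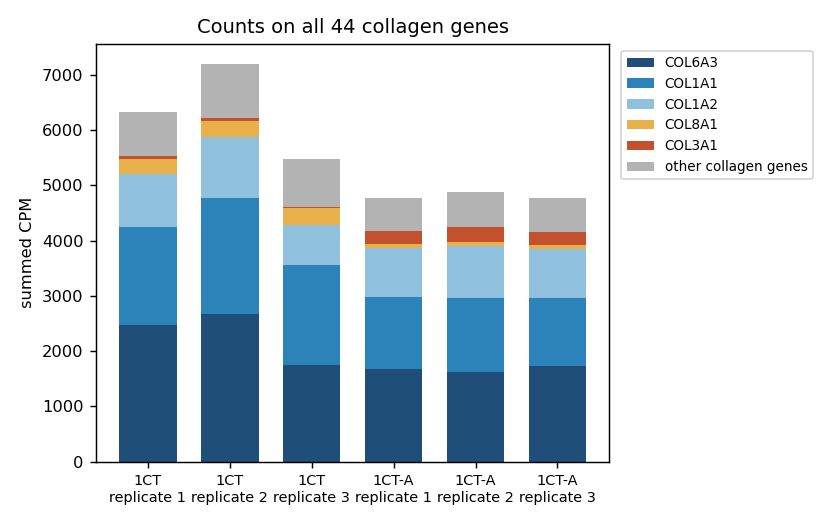
Counts on all 44 collagen genes in each of the 6 libraries, as stacked bars of summed CPM from 0, with the 5 named genes in color and the remaining genes in grey. The 1CT bars reach 5473 to 7197 CPM and the 1CT-A bars 4764 to 4882 CPM, with a wider COL3A1 segment and a narrower COL8A1 segment in 1CT-A.

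The 6 type IV genes lie in the human genome as pairs that share a start region and point away from each other. In RefSeq on GRCh38.p14, 126 bases lie between the start sites of COL4A1 and COL4A2, 418 between those of COL4A4 and COL4A3 and 379 between those of COL4A6 and COL4A5. The interval between the COL4A1 and COL4A2 start sites is shown because the levels of both partners were lower in 1CT-A. It covers chr13:110307158-110307283 and is written 5′ to 3′ on the plus strand, so that COL4A1 starts to its left on the minus strand and COL4A2 to its right, and the capitals mark the only matches to the 4 motifs searched on both strands (CCAAT box, GC box, TATA box and TCF/LEF core), a CCAAT box at bases 22 to 26 and a GC box (GGGCGG) at bases 62 to 67.
COL4A1-COL4A2 interval: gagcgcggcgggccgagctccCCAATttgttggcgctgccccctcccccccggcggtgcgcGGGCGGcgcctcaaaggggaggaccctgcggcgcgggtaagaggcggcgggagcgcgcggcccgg
Of its bases, 80.2% are G or C. GENCODE release 44 also places a COL4A2 transcript start inside COL4A1, so the genes overlap there on opposite strands.

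COL4A1 and COL4A2 encode the chains of the common basement membrane network. COL4A1 measured 86.8, 114 and 89.4 CPM in the 1CT libraries and 45.9, 52.4 and 40.9 CPM in the 1CT-A libraries. COL4A2 measured 101, 109 and 106 CPM in 1CT and 53.8, 54.6 and 56.7 CPM in 1CT-A. For both genes all 1CT libraries were above all 1CT-A libraries, by 2.14-fold for COL4A1 (log2 fold change -1.10, SE 0.12, adjusted p = 5.32e-06) and 1.96-fold for COL4A2 (log2 fold change -0.97, SE 0.076, adjusted p = 4.01e-07). COL4A5, a chain of more specialized basement membranes, was not called, with 3.90, 4.71 and 2.70 CPM in 1CT and 3.85, 5.88 and 5.08 CPM in 1CT-A, groups that overlapped (log2 fold change 0.35, SE 0.25, adjusted p = 0.263).

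The remaining type IV genes were too sparse for the test. COL4A6, the partner of COL4A5 on chromosome X, collected 0, 3 and 3 counts across 1CT against 11, 17 and 18 across 1CT-A. Over the summed libraries its CPM was 5.35-fold higher in 1CT-A (95% exact interval 2.28 to 15.3). COL4A4 ran the other way, with 4, 13 and 4 counts in 1CT and 0, 1 and 1 in 1CT-A, a level 15.1-fold higher in 1CT (95% exact interval 3.68 to 132). Its partner COL4A3 had at most 2 counts in a library. These intervals cover counting error only, and the spread between replicates was larger than counting error across all genes. Of the 21 COL4A4 counts in 1CT, 13 came from replicate 2. Without the filter on low counts, COL4A6 and COL4A4 were called in the same directions by edgeR, with adjusted p = 8.58e-04 and 7.00e-04. The p-values of that fit may be too small. For COL11A1, whose replicates spread widely, edgeR gave adjusted p = 0.0620 with the filter and 6.04e-10 without it.

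Type VI collagen is assembled from the products of COL6A1, COL6A2 and a larger chain such as that of COL6A3. COL6A1 measured 207, 228 and 254 CPM in 1CT and 126, 113 and 111 CPM in 1CT-A, and was 2.03-fold lower in 1CT-A (log2 fold change -1.02, SE 0.091, adjusted p = 1.27e-06). COL6A2, its neighbour on chromosome 21, measured 47.9, 49.3 and 57.1 CPM in 1CT and 31.3, 27.1 and 29.4 CPM in 1CT-A and was 1.81-fold lower in 1CT-A (log2 fold change -0.85, SE 0.10, adjusted p = 1.64e-05). In neither gene did the lines overlap. COL6A3 lies on chromosome 2 and measured 2467, 2674 and 1744 CPM in 1CT and 1669, 1626 and 1724 CPM in 1CT-A. The lowest 1CT library of COL6A3 was only just above the highest 1CT-A library (log2 fold change -0.49, SE 0.11, adjusted p = 0.00295). Without both libraries numbered 2 its call was lost (log2 fold change -0.34, adjusted p = 0.0755). COL6A5 and COL6A6, which encode alternative large chains, had at most 1 and 4 counts in a library.

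Type I collagen, the bulk of connective tissue fibers, is built from the COL1A1 and COL1A2 chains. COL1A1 measured 1776, 2099 and 1807 CPM in 1CT and 1311, 1343 and 1233 CPM in 1CT-A, and all 1CT-A libraries were lower (log2 fold change -0.59, SE 0.073, adjusted p = 2.18e-05). COL1A2 measured 967, 1095 and 723 CPM in 1CT and 879, 933 and 885 CPM in 1CT-A. Its groups overlapped and no difference was called (log2 fold change -0.084, SE 0.11, adjusted p = 0.548). The COL1A2 value was sensitive to single 1CT libraries, since leaving out 1CT replicate 3 gave a log2 fold change of -0.22 with adjusted p = 0.00543 in edgeR, and leaving out 1CT replicate 2 gave 0.051 with adjusted p = 0.689.

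COL3A1 encodes the chain of type III collagen, which is found with type I in distensible tissues including the gut wall. The reads counted on it numbered 382, 553 and 245 in 1CT against 2673, 3069 and 3168 in 1CT-A. These stood for 45.2, 66.8 and 31.5 CPM and 239.6, 269 and 251 CPM. All 1CT-A libraries were above all 1CT libraries by a wide margin, and the level rose 5.16-fold from 1CT to 1CT-A (log2 fold change 2.37, SE 0.18, adjusted p = 2.7e-07). It was the largest fitted rise among the 21 tested collagen genes.

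COL5A2 lies next to COL3A1 on chromosome 2. In GENCODE release 44 on GRCh38, COL3A1 spans positions 188974373 to 189012746 on the plus strand and COL5A2 spans 189031898 to 189225312 on the minus strand, so the genes point toward each other with 19151 bases between them. Type V collagen joins type I in mixed fibrils and is known to control their width, most often with COL5A1 and COL5A2 chains. COL5A2 measured 106, 144 and 108 CPM in 1CT and 159, 186 and 175 CPM in 1CT-A and was 1.41-fold higher in 1CT-A (log2 fold change 0.50, SE 0.11, adjusted p = 0.00165). COL5A1 measured 39.4, 57.4 and 43.4 CPM in 1CT and 10.5, 14.8 and 12.0 CPM in 1CT-A, 3.86-fold lower in 1CT-A (log2 fold change -1.95, SE 0.15, adjusted p = 4.23e-07). Both genes separated the lines, in opposite directions. COL5A3, a rarer type V chain, had 20, 24 and 16 counts in 1CT and 12, 8 and 7 counts in 1CT-A (log2 fold change -1.69, SE 0.35, adjusted p = 0.00133).

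COL27A1, a fibrillar chain known from cartilage, measured 35.5, 44.4 and 36.3 CPM in 1CT and 14.7, 17.5 and 14.6 CPM in 1CT-A (log2 fold change -1.35, SE 0.12, adjusted p = 1.06e-06), with no overlap. COL11A1, a minor fibrillar chain, had 11, 109 and 21 counts in 1CT and 4, 44 and 9 counts in 1CT-A. Replicate 2 was the highest library in both lines, and the groups overlapped. Its difference missed the threshold (log2 fold change -1.85, SE 0.77, adjusted p = 0.0620), and passed it without both libraries numbered 2 (log2 fold change -1.86, adjusted p = 0.0230). Its fitted log2 fold change ran from -3.39 without 1CT-A replicate 2 to -0.32 without 1CT replicate 2. The other fibrillar genes, COL2A1, COL11A2 and COL24A1, had at most 1, 8 and 9 counts in a library.

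**Figure D3:**
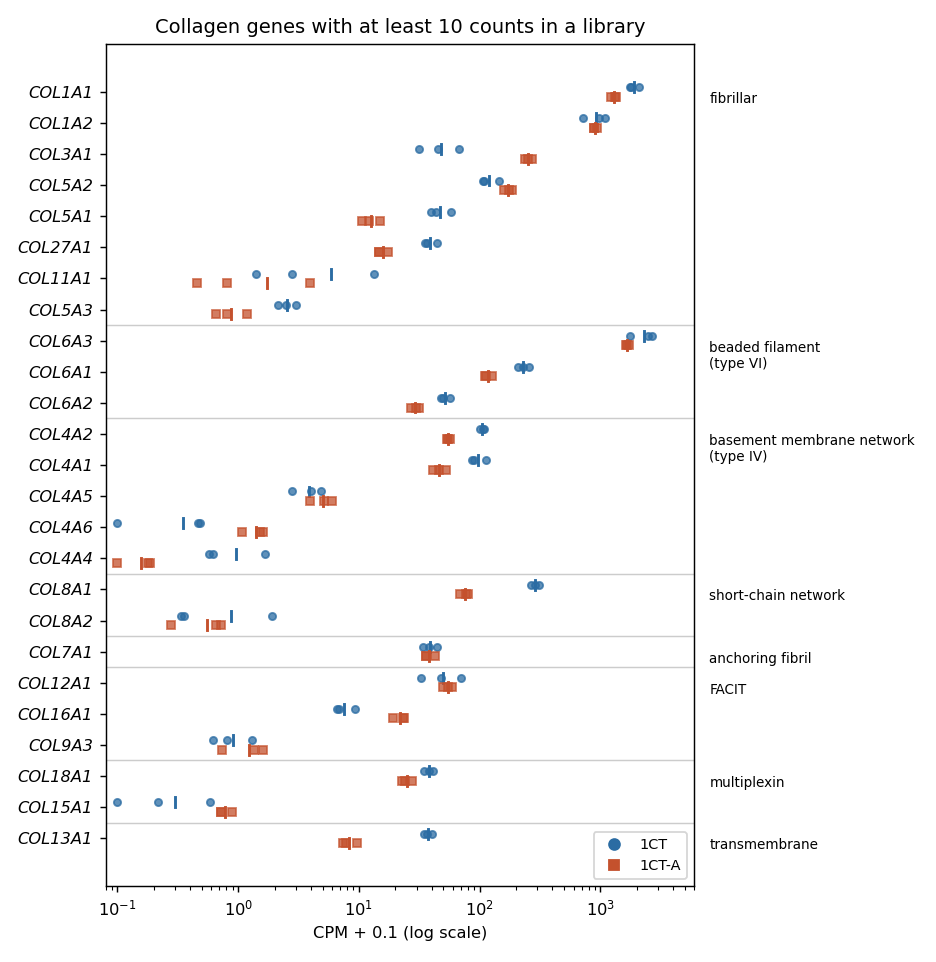
CPM of the 25 collagen genes with at least 10 counts in at least 1 library, on a log axis after adding 0.1 CPM, by collagen class. Circles are 1CT libraries, squares are 1CT-A libraries and vertical ticks are means of 3. The groups stand far apart for COL3A1, COL8A1 and COL13A1, while COL11A1 spreads widely within each line.

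COL8A1 encodes a short-chain collagen known from vessel walls and the cornea. It measured 268, 289 and 309 CPM in 1CT and 79.6, 76.4 and 69.3 CPM in 1CT-A, and was 3.95-fold lower in 1CT-A (log2 fold change -1.98, SE 0.085, adjusted p = 1.74e-09). Replicates lay close together in both lines. COL8A2, its usual partner, had 2, 15 and 2 counts in 1CT and 7, 2 and 7 counts in 1CT-A, too few for the test. The ratio of its summed CPM, 1CT-A over 1CT, was 0.587 (95% exact interval 0.283 to 1.21, counting error only), and 15 of its 19 counts in 1CT came from replicate 2. COL10A1, the third gene of the class, had at most 1 count in a library.

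COL13A1 encodes a transmembrane collagen of cell-matrix contacts. It measured 40.0, 36.8 and 34.4 CPM in 1CT and 7.35, 9.57 and 7.78 CPM in 1CT-A, and its 4.63-fold lower level in 1CT-A was the largest fitted fall among the tested collagen genes (log2 fold change -2.21, SE 0.12, adjusted p = 2.09e-08). COL17A1, the transmembrane collagen of epithelial hemidesmosomes, had at most 3 counts in a library. COL23A1 and COL25A1, the other transmembrane members, each had at most 2.

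COL18A1 encodes a basement membrane proteoglycan whose end fragment is endostatin. It measured 34.5, 38.2 and 41.0 CPM in 1CT and 27.6, 22.8 and 24.0 CPM in 1CT-A (log2 fold change -0.65, SE 0.11, adjusted p = 2.71e-04), without overlap. COL18A1 overlaps SLC19A1 on the opposite strand of chromosome 21, and without the strand setting of the counting, reads of these genes cannot be told apart. SLC19A1, a folate transporter, was itself higher in 1CT-A, at 15.3, 14.9 and 13.4 CPM in 1CT and 24.8, 27.4 and 27.5 CPM in 1CT-A (log2 fold change 0.83, SE 0.11, adjusted p = 3.77e-05). COL15A1, the related multiplexin, had 1, 4 and 0 counts in 1CT and 7, 7 and 10 counts in 1CT-A, a summed CPM 3.35-fold higher in 1CT-A (95% exact interval 1.25 to 11.2, counting error only). Without the filter on low counts it was tested and not called (adjusted p = 0.0808 in edgeR).

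Fibril-associated collagens sit on the surface of fibrils and do not form fibrils of their own. COL16A1, a member that links matrix to cells, measured 6.51, 9.18 and 6.80 CPM in 1CT and 19.2, 22.9 and 23.5 CPM in 1CT-A. It was 2.84-fold higher in 1CT-A, with no overlap (log2 fold change 1.504, SE 0.15, adjusted p = 4.28e-06). COL12A1, which binds type I fibrils, measured 47.8, 70.0 and 32.4 CPM in 1CT and 49.8, 54.9 and 58.8 CPM in 1CT-A (log2 fold change 0.085, SE 0.19, adjusted p = 0.730). The 1CT libraries of COL12A1 spread on both sides of the 1CT-A libraries, and leaving out 1CT replicate 2 gave a log2 fold change of 0.40 with adjusted p = 0.0281 in edgeR. COL9A3 had 6, 10 and 4 counts in 1CT and 14, 17 and 8 counts in 1CT-A and was not called (log2 fold change 0.41, SE 0.46, adjusted p = 0.481). It overlaps TCFL5 on the opposite strand, so its few reads are uncertain.

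COL7A1 encodes the anchoring fibrils that hold a basement membrane to the tissue below. It measured 33.6, 44.1 and 37.9 CPM in 1CT and 35.9, 42.5 and 36.1 CPM in 1CT-A. The groups overlapped and no difference was called (log2 fold change -0.052, SE 0.11, adjusted p = 0.719).

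The 19 genes with fewer than 10 counts in every library included 15 with at most 3. COL20A1 and COL21A1 were at 0 everywhere, and a count of 0 allows up to the floor given for each line. COL9A1, COL9A2, COL19A1, COL22A1, COL26A1 and COL28A1 had at most 1 count in a library, and COL14A1 had at most 7. COL11A2, with 4, 3 and 8 counts in 1CT and 0, 2 and 3 in 1CT-A, did not overlap in CPM and was not called without the filter (adjusted p = 0.0592 in edgeR). Summed over all 19, the level was 2.29 ± 0.144 CPM in 1CT and 1.00 ± 0.532 CPM in 1CT-A (SD, n = 3). For scale, the 378 olfactory receptor genes, a family used mainly in the olfactory epithelium, summed to between 3.38 and 4.50 CPM for 1CT and between 1.40 and 1.67 CPM for 1CT-A. Both sums were lower in 1CT-A, and the part of this low background in the sparse collagen values was not tested.

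Chains of 1 collagen type are set against each other as the log2 ratio of their counts within a library, which does not depend on the scaling between libraries. Of 8 pairs with at least 10 counts in every library, 6 gave ratios that did not overlap between the lines. Some genes occur in more than 1 pair, so the 8 are not independent, and the share among other pairs of genes was not computed. Taken singly, 59.7% of all genes tested did not overlap in CPM. Each of the 6 had p = 0.1 in a two-sided exact permutation test, the smallest that 3 libraries against 3 allow, and 0.133 after adjustment over the 8. The log2 ratio of COL5A2 to COL5A1 was 1.43, 1.33 and 1.32 in 1CT and 3.92, 3.65 and 3.87 in 1CT-A, a 5.48-fold shift and the largest of the 8. The ratio of COL4A5 moved up by 1.46 against COL4A1 and by 1.34 against COL4A2 on the log2 scale. The ratio of COL1A2 to COL1A1 moved from a mean of -1.05 ± 0.24 to -0.53 ± 0.05 (SD, n = 3), a difference of 0.52. The log2 ratio of COL6A3 to COL6A1 was 3.58, 3.55 and 2.78 in 1CT and 3.73, 3.85 and 3.96 in 1CT-A. Its difference of 0.55 was 0.28 without 1CT replicate 3, the lowest library. COL6A2 gained 0.17 on COL6A1. COL6A3 against COL6A2 overlapped between the lines, with a difference of 0.38 (exact permutation p = 0.2, adjusted p = 0.229) that was 0.12 without 1CT replicate 3. Without both libraries numbered 2, COL6A3 against COL6A2 no longer overlapped and 7 of the 8 pairs stood apart. With fewer libraries per line, ratios stand apart more easily. The pair with the least difference was COL4A2 and COL4A1, with a log2 ratio of 0.13 ± 0.17 in 1CT and 0.25 ± 0.21 in 1CT-A (SD, n = 3, exact permutation p = 0.5, adjusted p = 0.5).

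**Figure D4:**
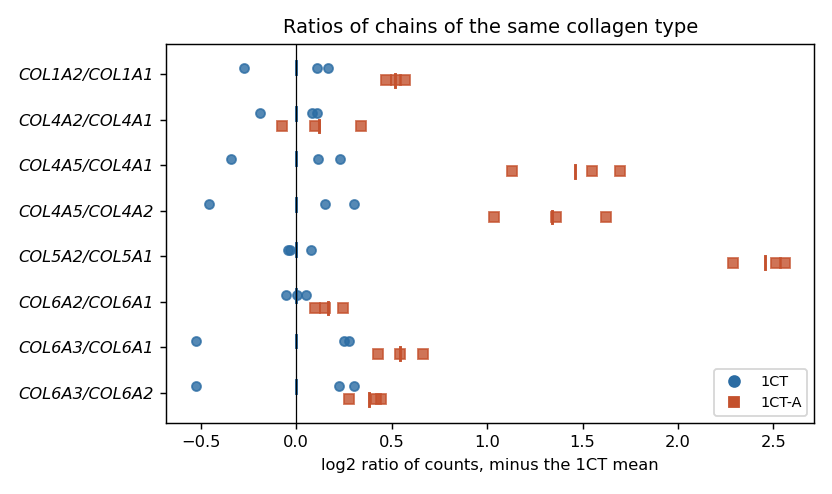
Log2 ratio of the counts of 2 chains of the same collagen type in each library, minus the mean of the 1CT libraries, for 8 pairs (circles 1CT, squares 1CT-A, ticks means of 3). The COL5A2/COL5A1 squares lie farthest from the circles, with a mean shift of 2.45, while those of COL4A2/COL4A1 and COL6A3/COL6A2 overlap them.

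The genes that modify, fold, trim, crosslink and bind collagen were taken from a list of 61, of which 49 were tested. In 1CT-A 24 were lower and 6 higher, together 61.2% of those tested, against 51% of all genes tested. Lower calls made up 49.0% and higher calls 12.2%, against 26% and 25% of all genes tested. PCOLCE2, FMOD and BGN are among the 24 lower and passed the filter on low counts through their 1CT libraries, and without these 3 the numbers were 21 lower and 6 higher of 46. Without both libraries numbered 2, 22 of the list were called, 17 lower and 5 higher. The median log2 fold change of the 49 was -0.26. All 7 crosslinking genes were called, 6 of them lower (85.7%). LOXL1, a lysyl oxidase, measured 71.3, 65.6 and 68.8 CPM in 1CT and 15.4, 16.9 and 15.6 CPM in 1CT-A, 4.41-fold lower in 1CT-A (log2 fold change -2.14, SE 0.091, adjusted p = 1.74e-09). LOX, the founding lysyl oxidase, measured 142, 148 and 101 CPM in 1CT and 52.2, 64.3 and 55.1 CPM in 1CT-A (log2 fold change -1.23, SE 0.13, adjusted p = 4.1e-06). TGM2, a transglutaminase, measured 23.2, 45.8 and 26.8 CPM in 1CT and 9.23, 12.7 and 8.01 CPM in 1CT-A (log2 fold change -1.72, SE 0.23, adjusted p = 4.95e-05). All 3 genes separated the lines. LOXL4, at 3.31, 4.59 and 3.59 CPM in 1CT and 1.43, 1.84 and 1.75 CPM in 1CT-A, fell 2.34-fold, and PXDN, a peroxidase that crosslinks type IV collagen, fell by less (log2 fold change -0.31, adjusted p = 0.00444). LOXL3 was the exception, with a log2 fold change of 0.39.

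Of the 4 tested genes for trimming the propeptides, 3 were lower in 1CT-A, against 26% of all genes tested, and 1 of the 3, PCOLCE2, had been tested through its 1CT libraries. BMP1, the protease that removes the C-propeptide of fibrillar chains, measured 40.3, 48.2 and 61.8 CPM in 1CT and 24.2, 26.0 and 23.2 CPM in 1CT-A (log2 fold change -1.07, SE 0.14, adjusted p = 3e-05). PCOLCE2, an enhancer of that step, had 21, 19 and 16 counts in 1CT and 4, 0 and 6 counts in 1CT-A and was lower in 1CT-A (adjusted p = 3.68e-04). Its summed CPM was 8.03-fold higher in 1CT (95% exact interval 4.06 to 17.6, counting error only). ADAMTS2, which removes the N-propeptide, fell 1.49-fold (log2 fold change -0.57, SE 0.11, adjusted p = 5.68e-04). The remaining tested gene of this group, PCOLCE, was not called (log2 fold change 0.33, SE 0.14, adjusted p = 0.0641). PCOLCE ran opposite to PCOLCE2, with every 1CT-A library above every 1CT library. It measured 10.1, 9.42 and 11.2 CPM in 1CT and 14.4, 12.2 and 13.0 CPM in 1CT-A.

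Of the 9 tested folding and export genes 3 were called (33.3%, against 51% of all genes tested), 2 lower and 1 higher. SERPINH1, which encodes the collagen chaperone HSP47, was the higher one, at 903, 938 and 913 CPM in 1CT and 1320.1, 1321 and 1386 CPM in 1CT-A (log2 fold change 0.51, SE 0.059, adjusted p = 1.26e-05). All 3 1CT-A libraries were above all 1CT libraries. Of 14 tested hydroxylation and glycosylation genes 5 were lower and 1 higher, together 42.9% against 51% of all genes tested. P3H2, a prolyl hydroxylase that prefers basement membrane collagen, measured 40.3, 59.9 and 47.5 CPM in 1CT and 20.1, 26.3 and 19.0 CPM in 1CT-A (log2 fold change -1.22, SE 0.15, adjusted p = 2.03e-05), whereas COLGALT1, a collagen galactosyltransferase, was not called, at 516, 511 and 599 CPM in 1CT and 575, 619 and 592 CPM in 1CT-A.

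Among fibril regulators 7 of 8 tested genes were called, 5 lower and 2 higher (87.5%, against 51% of all genes tested), and 2 of the lower ones, FMOD and BGN, had been tested through their 1CT libraries. SPARC, a collagen-binding matricellular protein, measured 561, 674 and 557 CPM in 1CT and 331, 356 and 343 CPM in 1CT-A (log2 fold change -0.84, SE 0.078, adjusted p = 1.85e-06). THBS2 fell 2.72-fold (log2 fold change -1.44, SE 0.16, adjusted p = 6.74e-06). BGN and FMOD are small leucine-rich proteoglycans that bind collagen. BGN measured 2.25, 1.93 and 3.72 CPM in 1CT and 0.538, 1.14 and 0.476 CPM in 1CT-A (log2 fold change -1.90, SE 0.41, adjusted p = 0.00181). FMOD had 15, 13 and 10 counts in 1CT and 3, 1 and 0 counts in 1CT-A and was lower in 1CT-A (adjusted p = 2.59e-04), with a summed CPM 13.6-fold higher in 1CT (95% exact interval 4.90 to 52.5, counting error only). DCN and FBLN1 were the higher ones, with log2 fold changes of 0.30 and 0.68. Of 7 tested receptors 3 were lower and 1, ITGA1, was higher (log2 fold change 0.86), together 57.1% against 51% of all genes tested. DDR1, a collagen-binding receptor tyrosine kinase of epithelial cells, measured 42.8, 42.7 and 45.1 CPM in 1CT and 21.4, 23.6 and 20.2 CPM in 1CT-A (log2 fold change -1.04, SE 0.095, adjusted p = 1.57e-06), while ITGB1, the shared beta chain of the collagen-binding integrins, was not called, at 365, 364 and 320.5 CPM in 1CT and 316, 355 and 352 CPM in 1CT-A.

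**Figure D5:**
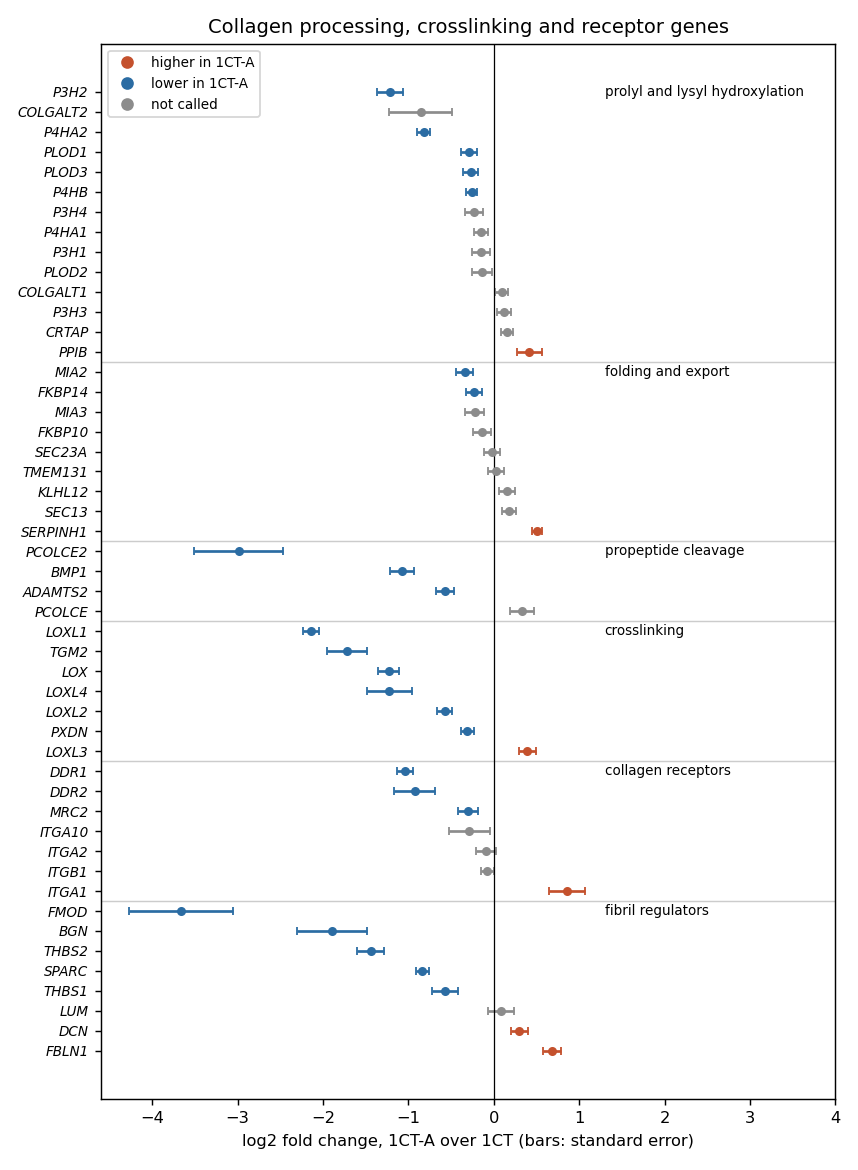
Fitted log2 fold change, 1CT-A over 1CT, of the 49 tested genes for collagen modification, folding, trimming, crosslinking, receptors and fibril regulation, in 6 groups, with bars for the standard error (n = 3 libraries per line). The crosslinking group holds 6 blue points and 1 orange point, while most folding genes are grey and near 0.

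Fibroblast and mesenchyme markers moved in both directions alongside these genes. TWIST1, a mesenchymal transcription factor, had 299, 242 and 170 counts in 1CT and 1138, 1184 and 1500 in 1CT-A (log2 fold change 1.87, SE 0.13, adjusted p = 1.68e-07). S100A4, a calcium-binding protein of motile cells, had 945, 905 and 945 counts in 1CT and 308, 363 and 299 in 1CT-A (log2 fold change -2.08, SE 0.11, adjusted p = 8.15e-09), and the log2 fold change of THY1 was -0.91. DCN and LUM belong to both this list and the fibril regulators. The part of these shifts in the collagen differences was not tested.

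Start site windows of 300 bases were taken from a table of RefSeq promoters (GRCh38.p14) that does not list every gene, and 32 of the 44 collagen genes were matched in it. On either strand, a GC box (GGGCGG) was found in 21 of the 32 (65.6%), against 48.3% of 27305 genes, and CCAAT in 12 (37.5%), against 39.7%. TATAAA was found in 7 (21.9%, against 13.99%). CTTTGAT, the core bound by TCF/LEF factors, was found in none of the 32 and in 3.18% of all genes, which says only that these letters are not in these windows. COL1A1, COL1A2, COL2A1, COL3A1, COL5A2, COL6A1, COL6A5, COL8A1, COL9A3, COL14A1, COL20A1 and COL22A1 were not matched in that table.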

How the data were processed

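RNA of 1CT and 1CT-A cells was sequenced by the authors as QuantSeq 3′ libraries on a NextSeq 500 (3 libraries per line). What the authors deposited for each library is a table of raw counts per gene symbol, neither normalized nor pooled. The submitters' processing notes name hg19, Bowtie2 and edgeR, without roles. The counting tool, its annotation and its strand setting are not given in the sources used here, so overlapping genes are uncertain. Counts of a repeated symbol were added.

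Genes were tested in edgeR 4.0.16 (R 4.3.3) by quasi-likelihood without a block. TMM factors lay between 0.976 and 1.02, low genes were removed by filterByExpr (min.count 10), and p-values of the 12514 genes left were adjusted by Benjamini-Hochberg and called under 0.05. The procedure was also run on simulated data with 200 changed genes and the same dispersion (0.0073) for every gene. That simulation does not cover genes whose replicates spread widely, such as COL11A1, or data in which 51% of genes are called. CPM in the text are per library total, without TMM. Library totals and the limit of 3 counts are given in the report, and intervals cover counting error only. Chain ratios were compared with exact permutation tests.

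Alternatives were DESeq2 size factors, scaling by library size alone, testing without a filter, requiring 10 counts in each library, limma-voom (limma 3.58.1), DESeq2 1.42.0, a replicate block, an adjusted p under 0.01, the study's thresholds and its per-gene test, the largest entry of a repeated symbol, and each library left out. Upper-quartile normalization and leaving out both libraries numbered 2 were added after seeing the data. No 2 libraries agreed within sampling noise (chi-square per degree of freedom 3.11 to 9.00).

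The members and gene lists were chosen with earlier results of these data known. Collagen genes with at least 10 counts in a library are named with the value in every library and the others with their highest count. From the list of 61 the text names genes called with an absolute log2 fold change of at least 1 and the gene with the highest mean CPM of each group. LOXL3, ITGA1, DCN, FBLN1, PCOLCE, the overlapping genes and the markers were named outside this rule, after their values were seen. MIA2 was read from its older symbol, CTAGE5. Coordinates are from GENCODE release 44 and RefSeq on GRCh38, and describe the annotation and not the counting.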

Additional observations from a re-analysis of the deposited data

How the results depend on the processing

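Of 639 comparisons of a named gene with its value in the main test under an alternative, over 38 genes, 622 kept direction and side of the threshold, 9 newly passed it, 4 lost it and 4 changed sign. Many genes of the list of 61 were named for a large called change in the main test, so their calls were likely to be kept. An alternative that did not test a gene gave no comparison for it. With a 2-fold change required and p under 0.01 before adjustment, 9 collagen genes were called (7 lower) and 11 genes of the list of 61. With the same thresholds and a per-gene two-tailed test on log2(CPM + 1), 8 (6 lower) and 9 were called. For that test only, CPM were scaled with the TMM factors. At an adjusted p under 0.05 that per-gene test kept 13 of the 15 collagen genes and 22 of the 30 list genes. Leaving out each library in turn gave 3 to 5 collagen genes higher in 1CT-A, with 5 without 1CT replicate 2, where COL12A1 passed the threshold and COL4A6 passed the filter and was called. COL12A1 had log2 fold changes from -0.13 to 0.40 on leaving out libraries, COL1A2 from -0.22 to 0.051 and COL7A1 from -0.14 to 0.055, and without both libraries numbered 2 COL1A2 stood at 0.036. None of these sign changes came with a call. The collagen calls lost in the per-gene test at that threshold were those of COL5A2 (adjusted p = 0.0634) and COL6A3 (adjusted p = 0.117). COLGALT1 passed the threshold without 1CT replicate 3 (log2 fold change 0.19, adjusted p = 0.00843). COL11A1 passed it without the filter and without 1CT replicate 1, 1CT replicate 3, 1CT-A replicate 2 or both libraries numbered 2. The filter also decided which sparse genes were tested. Without it 18 collagen genes were called, in a fit whose p-values may be too small.

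The labels number the libraries of both lines 1 to 3. Deviations from the line means of same-numbered libraries had correlations of -0.16, 0.22 and -0.14 over 8222 genes. Both libraries numbered 2 correlated best with each other, and those numbered 1 and 3 did not, so the numbers were not used as pairs. The largest correlation of any combination was 0.345, between 1CT replicate 3 and 1CT-A replicate 1. With a replicate block 16 collagen genes were called against 15 without it, and COL11A1 had adjusted p = 1.29e-04 in edgeR. The median log2 fold change of all genes was 0.031 with library size only, -0.063 with upper-quartile normalization and -0.099 without the filter. The 19 collagen genes with fewer than 10 counts in every library were not tested, and what difference this depth could show in them was not computed.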

Other observations

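Within 1CT, 16 of the 21 tested collagen genes were highest in replicate 2, a larger share than the 33.5% of all genes tested. Lowest in replicate 3 were 8 of the 21, against 40.7% of all genes tested. Of the collagen genes with more than 3 counts in at least 1 library, 13 were highest in replicate 2 of both lines. Among them were COL1A1, COL1A2, COL3A1, COL5A1, COL5A2 and COL27A1. The share of all genes with this pattern was not computed. Besides COL11A1, the 16 genes over 2-fold above the other libraries in replicate 2 of both lines included BMP2, a bone morphogenetic protein, with 1, 37 and 7 counts in 1CT and 1, 20 and 0 in 1CT-A. MCAM, an adhesion molecule of vascular and stromal cells, had 45, 329 and 25 counts in 1CT and 90, 386 and 155 in 1CT-A. ITGA8, an integrin chain, had 4, 57 and 15 counts in 1CT and 1, 25 and 7 in 1CT-A. These genes were picked after the values were seen.

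Of the symbols that resemble collagen names but were left out, COL18A1-AS1 and COL18A1-AS2 were at 0 in every library, COL4A2-AS1 had 3 or 4 counts in each 1CT library and 1 in each 1CT-A library, and the pseudogenes COL6A4P1 and COL6A4P2 had at most 4. COL4A3BP, which is not a collagen chain but a lipid transfer protein, had 157, 121 and 101 counts in 1CT and 194, 207 and 222 in 1CT-A.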
